A study of Mus musculus with 96 samples.

Results

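Genes of cation channels opened by membrane voltage, and of the subunits and relatives named with them, were followed through the RNA, methylated DNA capture and bisulfite results of irradiated mice. Members were all entries whose gene symbol began with Kcn, Scn, Cacn or Hcn followed by a subfamily code. The symbol rule used no measured value, but it was chosen with earlier results of these data known. This gave 65 genes and 151 of the 40336 deposited entries, made up of 18 of 2036 RNA entries, 23 of 3102 entries from capture with a methyl-CpG-binding domain (MBD) and 110 of 35198 entries from reduced representation bisulfite sequencing (RRBS). All tables together named 10221 genes, and 132 protein-coding mouse genes of the RefSeq annotation match the same symbol pattern, with Scn2a1 listed by the authors under an older symbol. The RNA tables listed only genes at an adjusted p under 0.1, and the sources used here do not state what threshold the methylation tables used. The tables hold the authors' comparison statistics and no values of single samples.

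The animals were C57Bl/6 mice, either irradiated or untreated, fed a high fat diet or chow. Satellite cells, the resident stem cells of skeletal muscle, were measured by RNA sequencing, MBD and RRBS, and the stromal vascular fraction, the mixed cells of fat tissue that are not adipocytes, by RRBS. Each of the 16 groups held 6 samples, except that the RRBS of the stromal vascular fraction had 6 untreated chow, 7 untreated high fat, 4 irradiated chow and 7 irradiated high fat samples, for 96 samples in all. Nothing in the labels ties samples to animals, so p-values measure the spread between these samples, which may be technical. Sex, age, genotype beyond the strain, radiation dose and the interval to collection are not stated there.

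Voltage-gated channels carry a pore that opens when the membrane depolarises or, in the HCN pacemaker family, hyperpolarises. Sodium channels start action potentials, calcium channels couple voltage to contraction, secretion and gene expression, and potassium channels return the membrane to rest. In muscle precursors, potassium channels that hyperpolarise the membrane and T-type calcium channels are known to take part in the steps before fusion, and the mature fibre uses the L-type calcium channel complex as its voltage sensor.

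The name voltage-gated covers only some of the members. By channel class, 30 genes encode pore-forming or pore-modifying subunits of voltage-gated channels, with 20 for potassium, 4 for calcium, 3 for sodium and 3 for HCN channels. A further 22 encode auxiliary subunits, of which 10 belong to the calcium channel families, 9 to potassium and 3 to sodium channels. The other 13 are relatives that voltage does not gate in the usual sense or that respond mainly to other signals, with 6 inward rectifiers (Kcnj), 3 calcium-activated channels (Kcnn), 3 tandem-pore leak channels (Kcnk) and the sperm channel gene Kcnu1. The pattern does not reach the alpha2delta calcium channel subunits, such as Cacna2d2 and Cacna2d3. Of the members, 37 genes stood in 1 table, 17 in 2, 7 in 3, 2 in 4 and 2 in 5 of the 14 tables. The same count was not made over all genes named in the tables. Cacna1a and Kcnn3 were the genes in 5 tables, and Kcnk12 was among those in 4.

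The starts of 3 member genes are shown first because the results below return to them. Each window runs 5′ to 3′ over 300 bases, 250 before and 50 after the RefSeq start, in build GRCm38.p6. Of the 65 genes, 42 matched a window in that table. In Hcn4 (chr9:58822699-58822998, plus strand) and Kcng3 (chr17:83631846-83632145, minus strand), capitals mark the bases inside intervals that the satellite cell RRBS tables listed. In Scn10a (chr9:119718983-119719282, minus strand), capitals mark the CG dinucleotides, the sites that methylated DNA capture can bind when methylated.
Hcn4: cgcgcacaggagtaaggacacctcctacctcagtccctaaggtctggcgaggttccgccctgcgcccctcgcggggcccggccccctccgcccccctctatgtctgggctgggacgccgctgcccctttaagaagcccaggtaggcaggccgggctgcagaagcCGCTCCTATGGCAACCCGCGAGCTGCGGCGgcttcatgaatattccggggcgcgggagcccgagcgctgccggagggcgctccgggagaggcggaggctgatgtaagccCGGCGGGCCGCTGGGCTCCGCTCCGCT
Kcng3: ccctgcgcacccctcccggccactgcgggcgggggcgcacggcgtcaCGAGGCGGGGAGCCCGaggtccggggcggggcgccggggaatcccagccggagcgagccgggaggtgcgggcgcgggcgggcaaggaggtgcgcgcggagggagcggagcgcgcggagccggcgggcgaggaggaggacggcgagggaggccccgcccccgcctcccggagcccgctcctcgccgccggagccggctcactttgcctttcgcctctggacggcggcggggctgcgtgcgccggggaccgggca
Scn10a: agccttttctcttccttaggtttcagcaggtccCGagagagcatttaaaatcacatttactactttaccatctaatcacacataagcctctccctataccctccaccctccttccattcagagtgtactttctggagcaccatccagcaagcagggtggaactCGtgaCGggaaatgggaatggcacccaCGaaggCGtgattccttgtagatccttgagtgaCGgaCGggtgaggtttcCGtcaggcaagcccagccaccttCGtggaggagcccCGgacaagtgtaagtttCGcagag
The windows of Hcn4 and Kcng3 held 31 and 49 CG dinucleotides and that of Scn10a held 11, against a median of 11 over the 42 member windows and 7 over all 27025 windows of the table. RRBS reads fragments cut by MspI at CCGG, a palindrome that reads the same on both strands. CCGG occurred 6 times in the Hcn4 window, 11 times in Kcng3 and 1 time in Scn10a. It occurred in 29 of the 42 member windows, a share of 69%, against 52.6% of all windows. Members had to be listed to count, and 43 of the 65 genes had an RRBS entry. RRBS reads only DNA near CCGG, so these CG and CCGG comparisons do not describe channel genes in general. The capitals covered 57 bases with 10 CG dinucleotides in Hcn4 and 16 bases with 3 in Kcng3.

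Irradiation of satellite cells, taken over both diets, was the RNA comparison with most members. The pore genes Kcnc4, Kcnb2, Kcnc2 and Scn2a1 were higher after irradiation. Lower were the calcium channel gamma family genes Cacng1 and Cacng6, the leak channel Kcnk13, the beta subunit Kcnab1 and the sodium channel Scn10a. At an adjusted p under 0.05 over the 12371 genes the authors tested, 5 members were higher and 5 lower. Over all genes tested, 3.05% were higher and 3.64% lower at that threshold. How many members were among the genes tested is not known here, so no share of members can be set against these percentages. The authors' deposited table sums the chow and high fat diet effects, and all values here are that sum divided by 2, the mean log2 fold change, with an approximate standard error from the deposited likelihood ratio. Since the samples are bulk RNA, fewer cells of a type and less RNA per cell cannot be told apart.

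Among the potassium channel pores, 3 rose. Kcnc4 (chr3:107438303-107459552, mm10), of the fast Shaw type that shortens action potentials, had a mean log2 fold change of 1.76 ± 0.54 (approximate SE) in the authors' deposited table, a 3.38-fold rise, with an adjusted p of 0.0257 by edgeR. Kcnb2, a delayed rectifier, rose by 1.43 ± 0.39 on the log2 scale in the authors' deposited table (adjusted p = 0.0112). Kcnc2, also of the Shaw type, rose by 1.01 ± 0.28 there (authors' deposited table, adjusted p = 0.0137). All 3 were scarce, with a mean abundance of 0.40, −0.28 and 1.02 log2 CPM (reads of the gene scaled to library size) in the authors' deposited table.

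Scn2a1 (chr2:65670445-65767447, mm10), the sodium channel pore of central neurons, rose by 1.38 ± 0.33 on the log2 scale in the authors' deposited table, a 2.60-fold rise at a mean abundance of 0.93 log2 CPM (adjusted p = 0.00276). The pacemaker gene Hcn2 had a value of 0.56 ± 0.22 and did not pass, with an adjusted p of 0.094 in the authors' deposited table. Cacnb2, a beta subunit that brings calcium channel pores to the membrane, had 0.70 ± 0.26 and also did not pass (authors' deposited table, adjusted p = 0.0718).

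The lower members began with Kcnk13, a tandem-pore leak channel best known from microglia. Its gene lies on chr12:99964499-100062682 (mm10). In the authors' deposited table it fell by 0.93 on the log2 scale, with an approximate standard error of 0.21 and an adjusted p of 0.00117, the smallest among the members. Kcnab1, a cytoplasmic beta subunit of Shaker-type potassium channels, fell by 0.83 with a standard error of 0.24 (authors' deposited table, adjusted p = 0.0156). Scn10a (chr9:119608456-119719032, mm10), the sodium channel pore of pain-sensing neurons, fell by 0.59 with a standard error of 0.19 (authors' deposited table, adjusted p = 0.0351). Cacng6 fell by 0.58 with a standard error of 0.16 and Cacng1 by 0.47 with a standard error of 0.13, at adjusted p-values of 0.01 and 0.0179 in the authors' deposited table. Cacng1 is the gamma subunit of the skeletal muscle L-type channel and Cacng6 a close relative of it.

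Higher members were scarce, while lower ones ranged from scarce to abundant. Median abundance was 0.40 log2 CPM for the 5 higher members and 5.36 for the 5 lower ones in the authors' deposited table. Among the lower ones, Kcnab1 lay at 0.45 and Scn10a at 2.12 in the authors' deposited table. Over all 827 listed genes the higher ones had a median of 4.23 and the lower ones 5.43 in the authors' deposited table. Of the 10 members past the threshold, 6 lay under 1.5 log2 CPM, a share of 60%, against 110 of 827, or 13.3%, of all genes past it. The fold changes of the higher members were large for the table. Their median was 1.38 against 0.56 over all 377 higher genes in the authors' deposited table, and Kcnc4, Kcnb2, Scn2a1 and Kcnc2 ranked 13, 23, 29 and 65 among those 377. The lower members had a median of −0.59 against −0.52 in the authors' deposited table. The part of low abundance in the fold changes of the higher members was not tested.

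**Figure D1:**
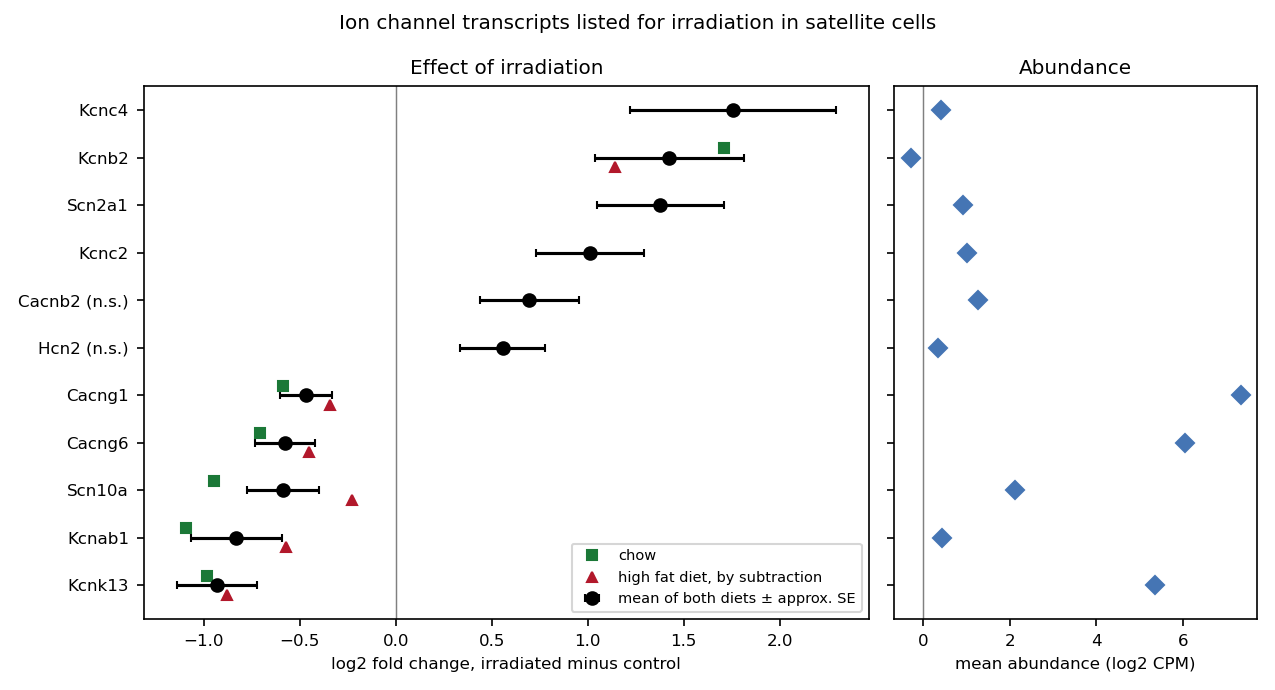
Left, log2 fold change (irradiated minus control) of 11 of the 12 listed members, as the mean of both diets with bars of 1 approximate standard error (circles) and, for members listed on chow, the chow value (squares) and the high fat diet value by subtraction (triangles); right, mean abundance in log2 CPM, all from the authors' deposited tables. Labels with n.s. mark Hcn2 and Cacnb2, whose adjusted p lay between 0.05 and 0.1, and the higher members lie at low abundance while Kcnk13, Cacng6 and Cacng1 lie above 5 log2 CPM.

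Other genes of excitation and calcium handling that the symbol pattern leaves out were counted in the same comparison. Of a list of 44 (calcium release, pumps, acetylcholine receptors, alpha2delta subunits and channel partners), 0 rose and 3 fell at an adjusted p under 0.05 over both diets, beside 3.05% higher and 3.64% lower of all genes tested. Dpp6, a partner of fast potassium channels, had a mean log2 fold change of −0.82, Chrng, the fetal acetylcholine receptor gamma subunit, −0.57, and Chrna1, the alpha subunit of that receptor, −0.40 in the authors' deposited table. Satellite cell markers stood at 0 higher and 1 lower of 10, the lower one being Cdh15 with −0.46 in the authors' deposited table. Among neuron and Schwann cell markers 2 of 12 were higher and 0 lower, the neurofilament genes Nefl with 1.48 and Nefm with 1.11 in the authors' deposited table. Fibroblast markers were lower for 3 of 8 (Col1a2 −1.18, Dcn −1.29 and Thy1 −1.37 in the authors' deposited table) and macrophage markers for 2 of 7 (Itgam −0.79 and Mrc1 −0.59 in the authors' deposited table). Myofibre markers had 1 higher (Myh2 with 3.79) and 2 lower of 12 (Ckm −1.16 and Pvalb −1.66), and perivascular markers 1 higher (Rgs5 with 0.94) and 2 lower of 8 (Acta2 −0.93 and Mcam −0.56), again from the authors' deposited table. Endothelial and adipocyte markers had 0 of 8 and 0 of 6 past the threshold in the both-diets table. The summed level of a marker list in each group, and which markers are at 0, are not known here because the tables hold no single samples, and the part of these markers in the channel results was not tested.

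On chow alone, Scn10a was the member past an adjusted p of 0.05, and on the high fat diet none was listed. The chow samples are also part of the comparison over both diets, so the values below are given side by side and are not a second test. Over all genes tested, 1.25% passed at 0.05 on chow, where 1 member did. At the authors' listing threshold of 0.1, 1 member was higher and 5 were lower on chow, against 1.01% and 1.59% of all genes tested. Scn10a fell by 0.95 on chow in the authors' deposited table (adjusted p = 0.0388). The high fat diet value obtained by subtraction was −0.23 ± 0.27. The difference, chow minus high fat diet, was −0.72 ± 0.38, less than 2 approximate standard errors. On chow, markers of other cells were lower too, with the endothelial genes Cdh5 and Pecam1 (2 of 8) at −3.03 and −2.25, the fibroblast genes Thy1 and Col1a2 (2 of 8) at −2.20 and −1.50, the myofibre genes Pvalb and Ckm (2 of 12) at −2.56 and −1.50 and the perivascular gene Mcam (1 of 8) at −0.79 in the authors' deposited table. Of the other excitability genes, Dpp6 with −0.88 and Chrng with −0.67 passed there as well in the authors' deposited table. The satellite cell, macrophage, neuron and adipocyte lists had 0 past the threshold on chow, and the part of these markers in the channel values was not tested.

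The other 5 chow entries had adjusted p-values between 0.05 and 0.1. Kcnk13 had −0.98 with chow in the authors' deposited table (adjusted p = 0.0594) and, by subtraction, at −0.88 ± 0.30 on the high fat diet. Kcnab1 had −1.09 with chow in the authors' deposited table (adjusted p = 0.0632) and at −0.57 ± 0.34 on the high fat diet. Cacng6 had −0.71 and −0.45 ± 0.22, and Cacng1 −0.59 and −0.34 ± 0.19, for chow in the authors' deposited table and for the high fat diet by subtraction. Kcnb2 had 1.71 on chow in the authors' deposited table (adjusted p = 0.0805) and 1.14 ± 0.56 on the high fat diet. Differences between diets could be formed only for members listed on chow. That listing itself favours large chow values, and each of these members had the larger value in size on chow. The differences between diets, with Scn10a included, ran from −0.72 to 0.57, and each was within 2 approximate standard errors of 0. That does not show that the diets act alike.

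In the high fat diet table, where 0.0647% of all genes tested passed at 0.05, 0 members were among the 18 genes listed. In the comparison of diets within irradiated mice, where 0.00808% passed, 0 members were listed and 1 gene was in all. Both edgeR tables list only genes at an adjusted p under 0.1, so the number of members at an unadjusted p under 0.05 is not known here. Of the markers, Nefl with 2.42, Nefm with 1.77 and Myh2 with 4.71 passed in the authors' deposited high fat diet table.

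Capture of methylated DNA in satellite cells gave 23 member entries over 16 genes. A log2 fold change there compares captured reads between a pair of conditions that the tables do not name, so directions are given as coded and say nothing of irradiated or untreated animals. Members of the potassium and calcium families were mostly negative in exons, where most listed regions were positive, while listed regions at or above the members' median abundance were mostly negative. The listing had p-values without adjustment, and values below carry that p.

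Scn10a and Kcnc2 were the 2 members with both an RNA and a capture entry. The Scn10a promoter (chr9:119718033-119720032, mm10), 2000 bases that contain the window printed above, had a log2 fold change of −0.60 ± 0.18 (approximate SE) at 7.70 log2 CPM in the authors' deposited table (p = 0.000747). It was listed 2 times with the same values, under separate transcript identifiers. In promoters 24.1% of the 373 listed regions were positive, and 0 of the 2 member entries were. In CpG islands 81% of the 84 listed regions were positive, and the 1 member was too. That island lies in exon 2 of Kcnc2 (chr10:112271837-112272249, mm10) and had 1.77 ± 0.53 at 5.78 log2 CPM in the authors' deposited table (p = 0.000777). The Scn10a transcript was lower and the Kcnc2 transcript higher after irradiation, but with the sides of the capture contrast unnamed, the RNA and capture directions cannot be related. In CpG shores 34.2% of 190 listed regions were positive. The 1 member there was intergenic DNA near Cacnb4, a calcium channel beta subunit (chr2:52676611-52678610, mm10), with −0.86 ± 0.24 in the authors' deposited table (p = 0.000411).

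Exons held 19 member regions in 13 genes. Of these, 4 regions in 3 genes were positive and 15 in 10 genes negative, while 66.2% of all 2455 listed exon regions were positive. Positive members were Kcng2, a silent potassium channel modifier, with 0.79 ± 0.23, Scn3b, a sodium channel beta subunit, with 0.69 ± 0.22 over 2 overlapping entries, and Kcnn3, a small-conductance calcium-activated channel, with 0.55 ± 0.14 in the authors' deposited table. Kcnn3 had the smallest p of the exon members, 8.06e-05 in the authors' deposited table. Its listed exon (chr3:89520164-89527780, mm10) contains the RRBS intervals of Kcnn3 described below.

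Among the most negative exon members were Cacng7 with −0.49 ± 0.18, Kcne2 with −0.43 ± 0.16, Kcnc1 with −0.42 ± 0.15 and Kcnj6 with −0.39 ± 0.14 in the authors' deposited table. Cacng7 encodes a subunit of AMPA-type glutamate receptors by function, Kcne2 a single-span potassium channel partner, Kcnc1 a Shaw-type pore and Kcnj6 a G-protein-gated inward rectifier. Cacng3, Kcna6 and Kcnu1 had values from −0.38 to −0.29 in the authors' deposited table. Kcnma1, the large-conductance channel gated by both voltage and calcium, had 6 entries from −0.25 to −0.23 in the authors' deposited table. Of these, 5 overlap one another (chr14:23298694-23303832, mm10) and are not separate measurements, and the other is a region of its own (chr14:23306612-23312805, mm10) with −0.24 in the authors' deposited table. All 19 entries had a p under 0.01 in the authors' deposited table. With the listing threshold not known, this may follow from the listing alone. None reached a fold of 1 on the log2 scale, and neither count was made over all listed exon regions.

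The member exons were more abundant than most listed exon regions. Median abundance was 5.46 log2 CPM for the member regions and 4.0 for all listed exon regions in the authors' deposited table. Within the abundance range of the members, 3.12 to 6.44 log2 CPM, 63% of 1510 listed regions were positive, a range chosen after the values were seen. At or above the members' median abundance, also chosen afterwards, 62 of 620 listed regions were positive, a share of 10%, and 0 of 10 member regions were. Listed regions at or above that abundance were thus mostly negative. The 10 member regions there came from 5 genes and included overlapping Kcnma1 entries, so they are few to set against that share. Of the negative regions, 558 of 831 listed and 10 of 15 member regions lay at or above it. Of the positive ones, 62 of 1624 listed and 0 of 4 member regions did. The part of abundance in these signs was not tested. The median fold change was −0.25 for the member regions and 0.63 for all listed exon regions in the authors' deposited table. The member medians include the overlapping Kcnma1 entries. With 1 region per gene, the members had a median fold change of −0.38 and a median abundance of 5.25 log2 CPM.

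**Figure D2:**
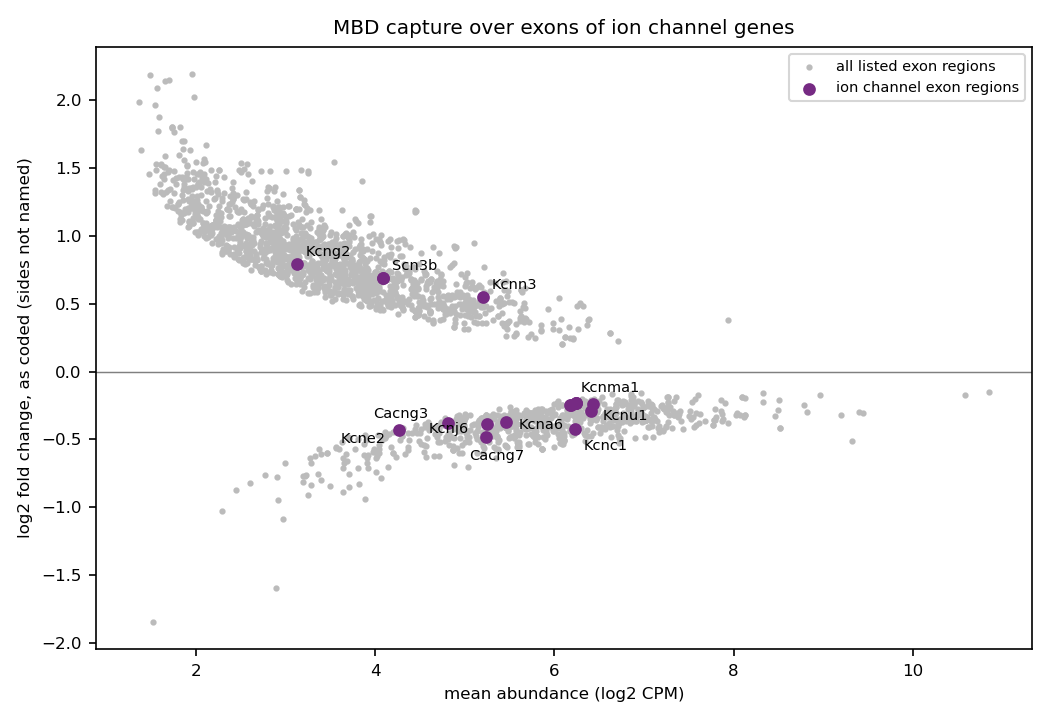
Log2 fold change as coded against mean abundance in log2 CPM for all 2455 listed exon regions of the capture data (grey) and 17 of the 19 member regions (colour), from the authors' deposited table. The plotted members lie between 3.12 and 6.44 log2 CPM, and 13 of them are below 0.

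RRBS supplied most of the member entries, 110 over 43 genes, with 50 in the stromal vascular fraction and 60 in satellite cells. The stromal vascular fraction listed 25 of the genes, satellite cells 27, and 9 were in both. The same overlap was not counted over all genes listed, so 9 cannot be read as few or many. Each entry is a short interval with the median difference in methylation between a pair of groups, which the tables do not name. Differences are given in percentage points with the sign as coded, and no direction of radiation or diet is drawn from them. The radiation, diet and interaction tables of a cell type come from the same set of samples, so their entries are not independent and are set side by side. The sources used here do not state what spread the RRBS p-values measure, and they are not printed.

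By place, 74 of the 110 entries lay within 1 kb of an annotated start, 11 between 1 and 3 kb, 17 in introns, other exons and UTRs and 8 between genes. Over all listed regions, the share within 1 kb ran from 78.8% to 87.1% by comparison. For the members it ran from 33.3% to 73.3%, and it was the lower share in each comparison. The other places were not counted over all regions. Positions below are distances in bp from the nearest start as the authors annotated it, negative when upstream.

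**Figure D3:**
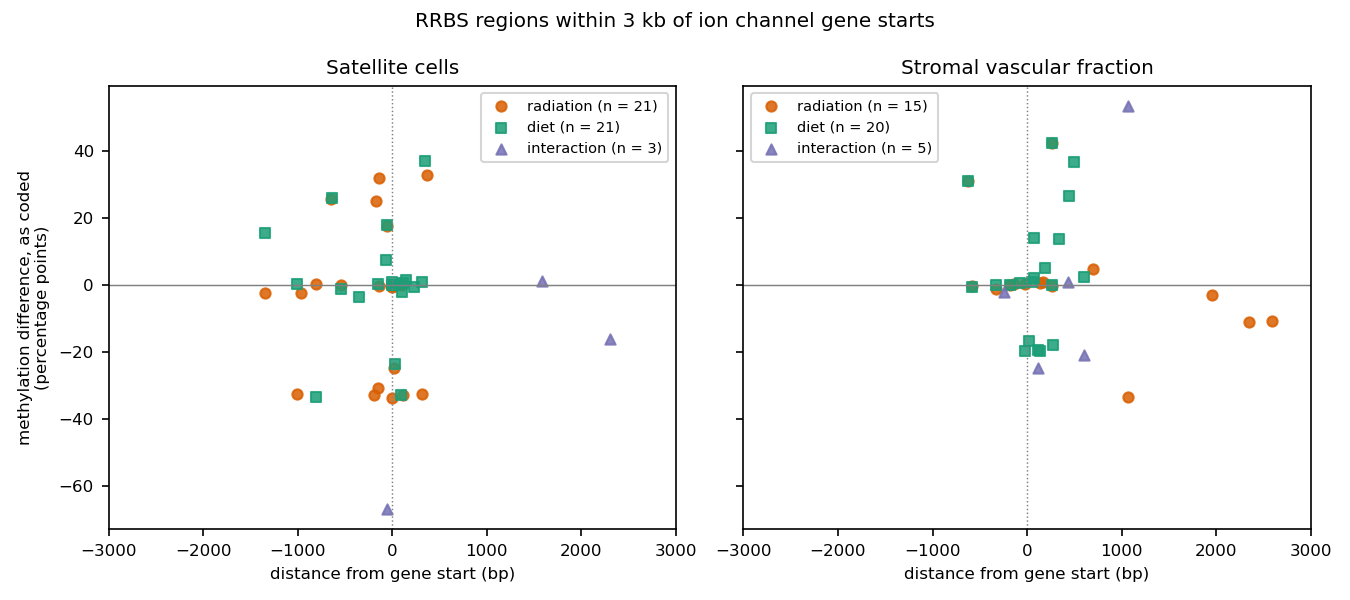
Difference in median methylation, as coded in percentage points, against distance from the nearest start in bp for the RRBS member regions within 3000 bp, from the authors' deposited tables. Of all 110 entries, 85 lie in this window, with differences of either sign on both sides of the start. The count in this window was not made over all listed regions.

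In satellite cells, the radiation table listed 31 regions in 19 genes, most with a negative difference. It was above 0 in 7 and below 0 in 24, while 48.1% of all 9827 regions listed were above 0. A difference of 10 percentage points or more was seen in 18 member regions, 6 positive and 12 negative. Over all regions listed, 51.9% reached 10 points, 2346 of them positive and 2755 negative. The median size was 20.2 points for the members and 13.8 for all regions in the authors' deposited table. Because several regions share a gene, the 31 are not independent.

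The pacemaker promoter printed above had regions of either sign. Hcn4, the main pacemaker channel of the heart, differed by −32.7 points at −1006 bp in the authors' deposited table, upstream of the window printed above. Inside that window the sign was the other one, with 25.7 points at −649 bp in the authors' deposited table. The first stretch of capitals in the Hcn4 sequence is this interval, and the second belongs to an interval at −540 bp that differed by −0.158 points in the authors' deposited table. The authors counted these distances from a start downstream of the RefSeq start used for the window. Neighbouring CG clusters of the Hcn4 promoter thus had opposite signs.

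Potassium channel genes were mostly negative as well. The capitals printed for Kcng3, at −188 bp of a gene for a silent modifier of delayed rectifiers, mark an interval that differed by −32.8 points in the authors' deposited table. Kcnh2, the cardiac repolarising channel, differed by −30.9 points at −155 bp, and Kcnn3 by −32.8 at 119 bp in the authors' deposited table. Kcnj11, the pore of the ATP-sensitive potassium channel, differed by −24.8 points at 19 bp in the authors' deposited table. Kcnk12, a tandem-pore relative, differed by −34.3 points in its last exon in the authors' deposited table, the most negative member of this table. Kcnk3, an acid-sensitive leak channel, was positive with 31.8 points at −137 bp in the authors' deposited table.

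The calcium channel genes split. Cacna1a, the P/Q-type pore of nerve terminals, differed by −33.8 points in intron 30 and by −20.2 in exon 27 in the authors' deposited table. Cacnb3, a beta subunit, was positive with 32.7 points at 364 bp in the authors' deposited table. Cacna1h, the T-type pore described in differentiating muscle precursors, was positive with 24.9 points at −174 bp and 17.7 at −50 bp in the authors' deposited table. At 24 and −11 bp of the same gene the differences were −0.278 and −0.214 points in the authors' deposited table. The −50 and 24 bp intervals are placed from the same annotated start, and the −174 and −11 bp intervals from a different start upstream of it. Of the auxiliary potassium subunits, Kcnab2 differed by −22.1 points in intron 13, and Kcnip1, a calcium-binding partner of fast potassium channels, by 22.4 in intron 7 in the authors' deposited table. Among the remaining genes of this table, Kcng1, Kcng2, Kcnh3, Kcnj8 and Kcnn1 had differences under 10 points. They ranged from −9.95 points in a region assigned to Kcng2, at −43903 bp from its start, to 0.203 at Kcnn1 in the authors' deposited table.

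The satellite cell diet table listed 26 regions in 17 genes, with no lean to one sign and mostly small differences. The difference was above 0 in 14 and below 0 in 12, and 51.9% of all 9617 regions listed were above 0. There, 9 member regions reached 10 points, 5 positive and 4 negative, while 47.9% of all regions did. Of those 4606 regions, 2280 were positive and 2326 negative. The median size was 1.83 points, against 5.26 for all regions in the authors' deposited table.

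Negative regions were led by Kcnn1, a calcium-activated channel, with −33.4 points at −804 bp, and by Cacna1g, a T-type pore, with −32.9 at 97 bp in the authors' deposited table. Scn4b, a sodium channel beta subunit, had −23.5 points at 34 bp, and an intergenic region assigned to the silent modifier Kcng1 had −15.6 in the authors' deposited table. Positive regions were led by Cacnb3 with 36.8 points at 344 bp and Hcn4 with 26 at −633 bp in the authors' deposited table. Cacna1h had 17.9 points at −50 bp, and a further Cacna1g region 15.4 at −1343 bp in the authors' deposited table. Cacna1g thus had large differences of both signs in its promoter, the positive difference at a single base. Kcns1, a silent modifier, had 13.2 points in intron 1 in the authors' deposited table. The Kcng1 and Kcns1 regions are also single bases, and the coverage of these bases is unknown. Differences under 10 points were listed for further regions of these genes and for Cacna1a, Cacng2, Kcnh2, Kcnj8, Kcnk12, Kcnma1 and Kcnn3, among others, and the most negative of them was −8.65 points at Kcnma1 in the authors' deposited table.

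The satellite cell radiation and diet tables listed 8 member intervals with the same ends. Kcnn3 at 119 bp had −32.8 points for radiation and 0.53 for diet, Hcn4 at −1006 bp had −32.7 and 0.131, and the Cacna1a intron had −33.8 and 0.305 in the authors' deposited tables. Kcnn1 at −804 bp had the large value in the other table, with 0.203 for radiation and −33.4 for diet in the authors' deposited tables. Of the 8 intervals, 5 had a value of −10 points or below in one table and a positive value under 1 point in the other. The same count was not made over all intervals that the tables share, so the pattern cannot be called particular to channel genes. Both values were negative and small at the other 3, with −0.278 and −0.14 for Cacna1h at 24 bp, −0.158 and −1.13 for Hcn4 at −540 bp, and −0.538 and −0.189 for Kcnh2 at 2 bp in the authors' deposited tables. Overlapping intervals of Cacnb3, Hcn4 at −649 and −633 bp and Cacna1h at −50 bp were instead positive by 17.7 points or more in both tables.

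**Figure D4:**
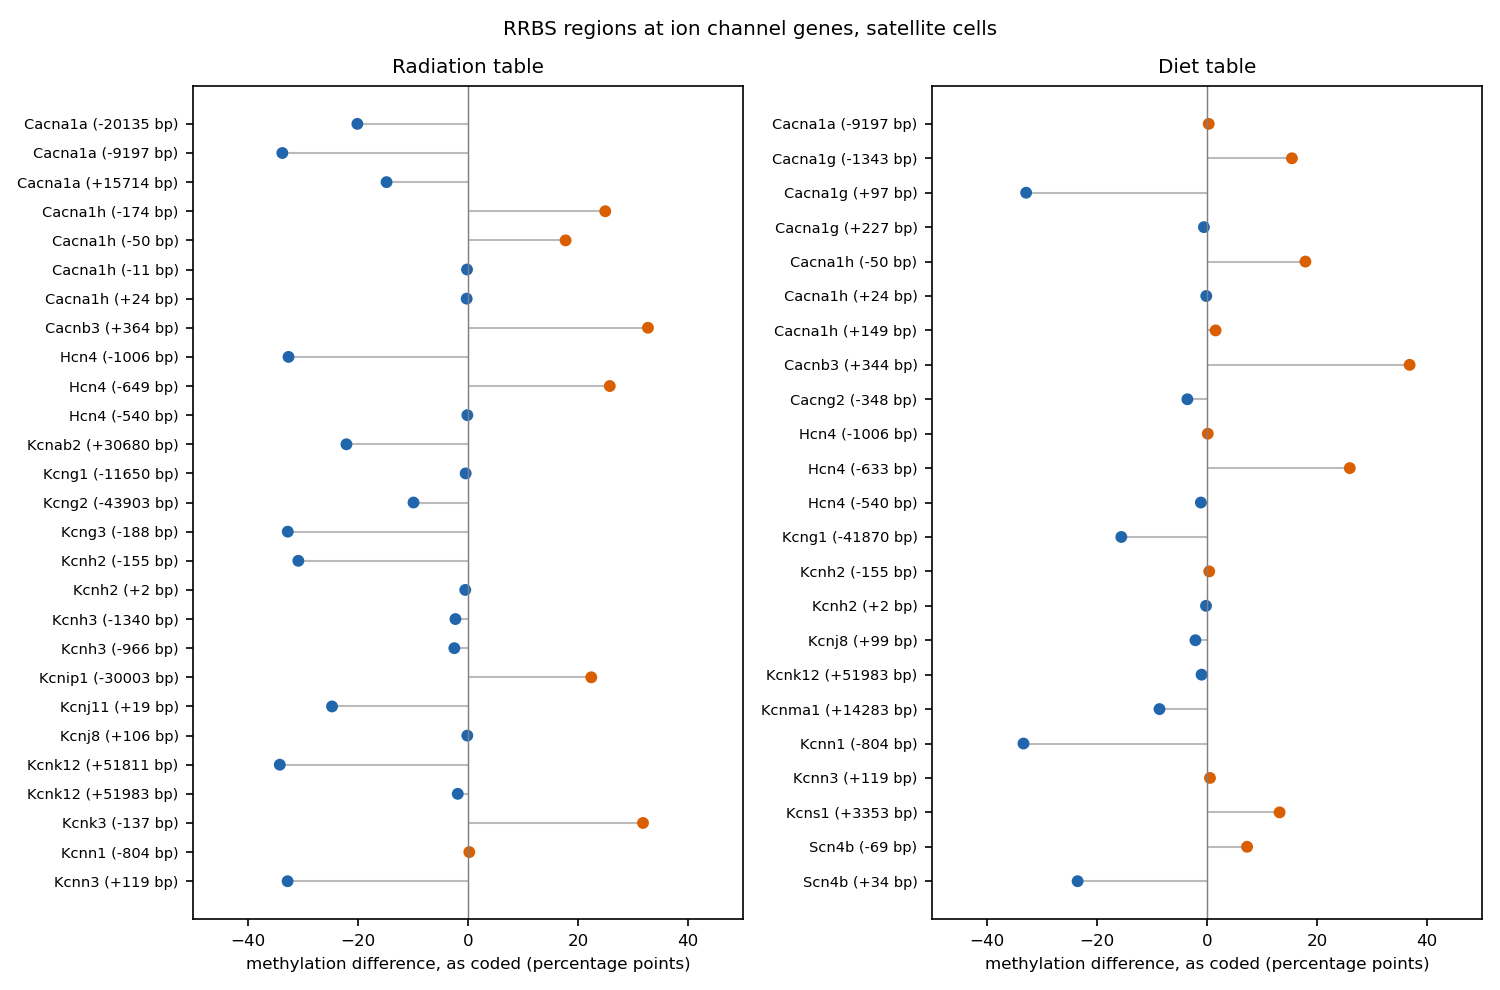
Methylation difference, as coded in percentage points, for the named members' regions in the satellite cell radiation and diet tables, with the distance from the nearest start in bp beside each gene, blue for negative and orange for positive. For radiation, most points are negative, and several of the large ones lie near −33, as at Kcnn3 and Kcng3 with −32.8 each.

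In the stromal vascular fraction, the radiation table listed 15 regions in 13 genes, most with small differences. The difference was above 0 in 7 and below 0 in 8, and 60.7% of all 5493 regions were above 0. A difference of 10 points was reached by 5 member regions, 2 positive and 3 negative, and by 30.7% of all regions. Of those 1684 regions, 1381 were positive and 303 negative. The median size was 1.20 points for the members and 0.532 for all regions in the authors' deposited table.

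Kcnmb4, a beta subunit of the large-conductance calcium-activated channel, had 31.1 points at −624 bp in the authors' deposited table. Kcna7, a Shaker-type pore, had 4.59 points at 697 bp, and Kcne3, a single-span partner, 0.982 at 168 bp in the authors' deposited table. Kcne4, a single-span subunit that inhibits delayed rectifiers, was negative with −33.5 points at 1068 bp in the authors' deposited table. Kcng4, a silent modifier, had −10.8 points at 2588 bp and −11.1 at 2344 bp in the authors' deposited table. Kcnj1, the kidney inward rectifier, had −3.01 points at 1953 bp in the authors' deposited table. The other genes were Cacna1a, Cacna1g, Kcnip3, Kcnj8, Kcnk12 and Kcnn3, and their differences ran from −1.2 points at Cacna1a to 0.579 at Kcnn3 in the authors' deposited table.

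The stromal vascular fraction diet table listed 28 regions in 18 genes, evenly split by sign. The difference was above 0 in 14 and below 0 in 14, and 43.2% of all 7997 regions were above 0. A difference of 10 points was reached by 17 member regions, 8 positive and 9 negative, and by 60.4% of all regions. Of those 4832 regions, 2460 were positive and 2372 negative. The median size was 13.8 points for the members and 17.2 for all regions in the authors' deposited table.

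The positive regions included Kcnn2, a calcium-activated channel, with 36.5 points at 495 bp in the authors' deposited table. Kcnmb4 had 31.0 points at −624 bp, and Kcnab3, a potassium channel beta subunit, 26.4 at 448 bp in the authors' deposited table. The most negative region, with −23.8 points in the authors' deposited table, was assigned to Cacng8, an AMPA receptor subunit gene, but lies at −27285 bp from its start, in the last exon of the neighbouring member Cacng7. Cacna1g followed with −19.9 at −17 bp in the authors' deposited table. Kcnn3 had −19.8 points at 139 bp, and Cacnb1, the beta subunit of the muscle L-type channel, −19.4 at 111 bp and −18.1 at 270 bp in the authors' deposited table. Intergenic regions assigned to the silent modifier Kcng2 had −18.6 and −13.8 points, and one assigned to the inward rectifier gene Kcnj15 −10.7 in the authors' deposited table. The Cacnb1 region at 270 bp and the Kcng2 region with −13.8 points are single bases of unknown coverage.

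Cacna1g was negative at its start but had 14.5 and 10.7 points in exons labelled 6 in separate transcripts in the authors' deposited table. The region with 14.5 points is a single base of unknown coverage. Cacna1a, Cacna1i, Kcng1, Kcnip3, Kcnk12 and Kcns3 had differences under 10 points, from −8.70 at Kcng1 to 5.09 at Cacna1i in the authors' deposited table.

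Kcnmb4 was positive by 31.0 points or more in both of the authors' deposited stromal tables. At Cacna1g −17 bp the difference was 0.132 points for radiation and −19.9 for diet, and at Kcnn3 139 bp it was 0.579 and −19.8 in the authors' deposited tables. The Kcnn3 intervals of the cell types overlap. The large negative value of Kcnn3 stood in the radiation table of satellite cells and in the diet table of the stromal vascular fraction. Whether this differs between the cell types was not tested.

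**Figure D5:**
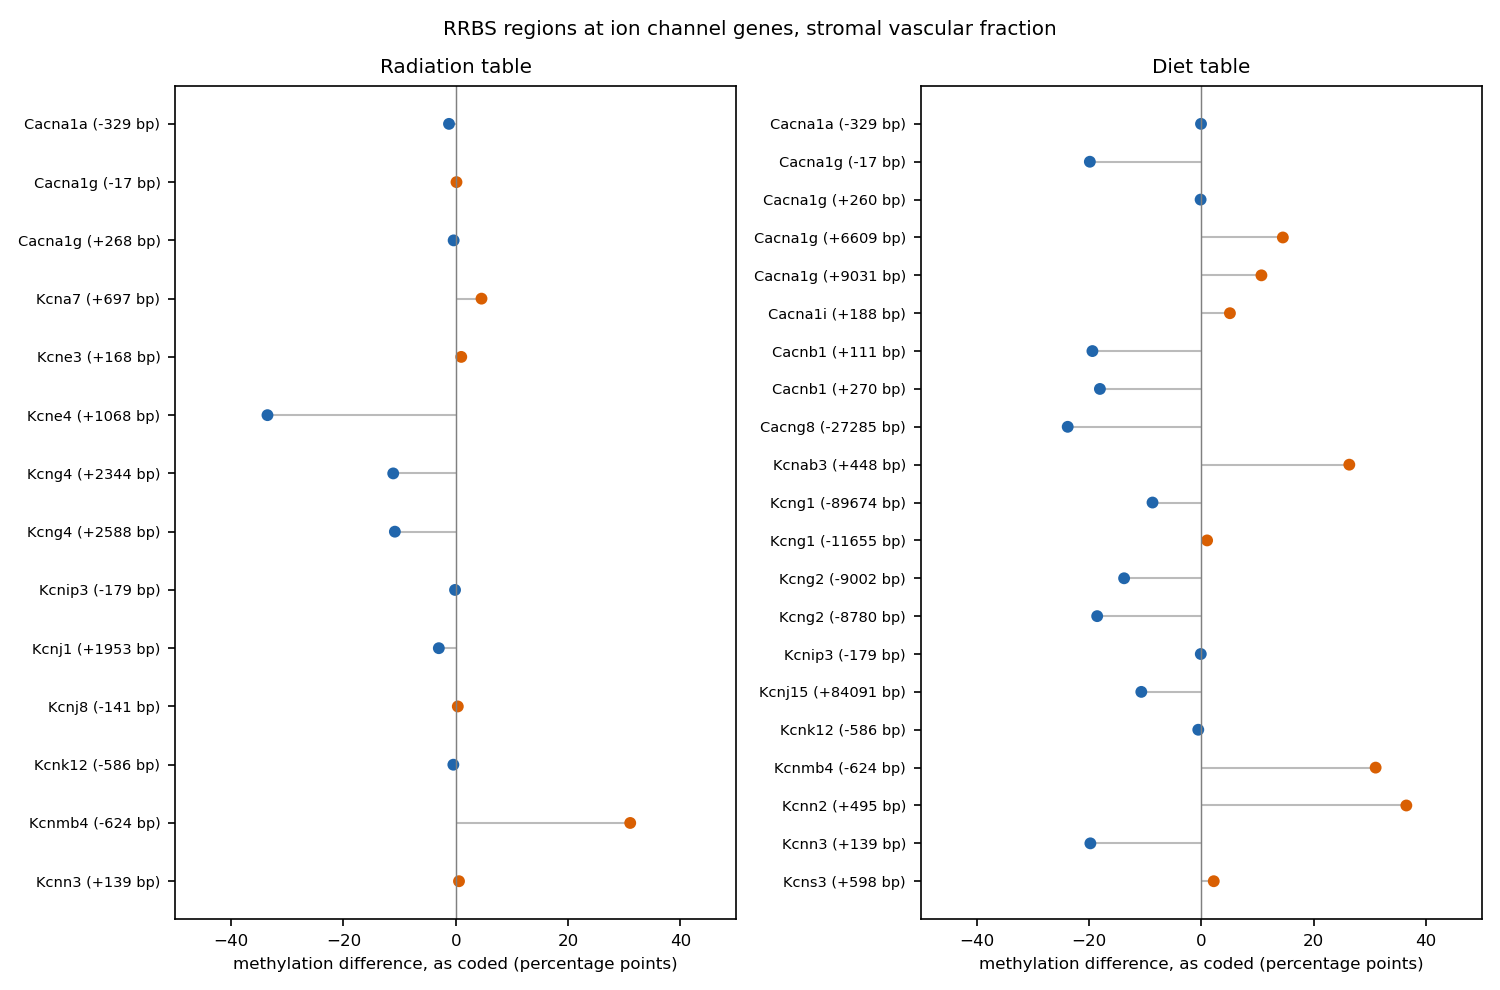
Methylation difference, as coded in percentage points, for the named members' regions in the stromal vascular fraction radiation and diet tables, with the distance from the nearest start in bp beside each gene, blue for negative and orange for positive. Kcnmb4 at −624 bp is positive in both, with 31.1 and 31.0 points.

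The authors also listed regions for the interaction of radiation and diet. In satellite cells 3 members were listed, and 1 had a difference above 0, against 44.8% of all 1057 regions. A difference of 10 points was reached by 2 of the 3 and by 32.8% of all regions. Cacna1h at −50 bp had −66.9 points, the largest member difference in any RRBS table, where the diet table had 17.9 for the same interval and the radiation table gave 17.7 for a shorter one in the authors' deposited tables. Kcnj3, a G-protein-gated inward rectifier, had 1.2 points at 1581 bp in the authors' deposited table.

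In the stromal vascular fraction 7 regions in 6 genes were listed, 3 above 0 and 4 below 0. Over all 1207 regions 32.2% were above 0, and 41.2% reached 10 points, as did 4 of the 7. Kcne4 at 1068 bp had 53.3 points, where the radiation table had −33.5 for an interval that contains it in the authors' deposited tables. A distal intergenic region assigned to the silent modifier Kcnv1, at −496936 bp from its start, had 42.1 points in the authors' deposited table. Kcnn2 had −24.9 points at 111 bp, where the diet table listed the neighbouring interval at 495 bp with 36.5 in the authors' deposited tables. Kcns3, a silent modifier, had −21 points at 598 bp, where the diet table had 2.21 for a longer interval in the authors' deposited tables. Cacna1a had −9.11 points in intron 37 and −2.19 at −245 bp in the authors' deposited table. The authors' deposited satellite cell radiation table listed that Cacna1a intron too, with −14.9 points. Of the listed members, Cacna1h, Kcne4 and Kcns3 had an interaction value of the opposite sign to a value of the radiation or diet table at the same start, and with the coding of these contrasts unnamed this cannot be read further.

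Overlap between the assays was counted among members only. Of the 12 genes in RNA tables, 0 had an RRBS entry and 2 had an MBD entry. Both MBD and RRBS entries were held by 4 genes, among them Kcng2, Kcnma1 and Kcnn3. The overlap over all listed genes was not counted, so these counts cannot be read as few or many. Some members lie close together. The Cacng7 exon of the capture data, the region assigned to Cacng8 in the stromal diet table and the Cacng6 transcript, lower after irradiation, lie within 99.1 kb (chr7:3336585-3435667, mm10). No test of a link between these entries was made.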

How the data were processed

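RNA sequencing, methylated DNA capture (MBD) and RRBS of satellite cells, and RRBS of the stromal vascular fraction, were analysed from 14 tables of the authors' own comparisons, with 0 columns of single samples. Nothing could therefore be refitted, no library left out, and the depth behind each value is unknown. Members and lists were chosen with earlier results of these data known.

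Per the labels' protocols, ribosomal RNA was removed for stranded RNA libraries, MBD used MethylMiner beads and RRBS used MspI. Per the submitters' processing notes, the build was mm10 and the tools were Trim Galore 0.4.0, cutadapt 1.8.3, Bismark 0.14.4, Bowtie2 2.2.6, CASAVA 1.8.2, TopHat2, featureCounts, edgeR, Trimmomatic and Picard, and the sources used here do not state whether counting used strand.

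The RNA tables give, per the file headers, log2 fold changes, mean log2 CPM, a likelihood ratio score, p-values and adjusted p-values, and were taken as the authors deposited them. The MBD columns also hold notes below the regions, so these deposited columns were read as a score, and lines with no chromosome were dropped. The RRBS tables give, per the file headers, median p-values and a median methylation difference, a score printed here in percentage points with the deposited sign. Columns with levels of unnamed groups were not used.

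For 13 genes in all 3 irradiation tables, the both-diets log2 value equalled the chow plus high fat diet values, with a largest deviation of 3.11e-15, so it was divided by 2 and the high fat diet value was obtained by subtraction. The approximate standard error is the log2 value divided by the square root of the likelihood ratio. The number of genes tested, 12371, is the largest adjusted p times rank over p. Scripts (Python 3.11.15, pandas 2.3.3, numpy 2.4.6, matplotlib 3.10.9) were tested on simulated data. Named are all members listed in RNA at an adjusted p under 0.1, all MBD members outside exons, the 5 exon genes and 4 RRBS regions with the largest values per direction, genes in most tables or in RNA and a methylation table, and listed pathway and marker genes. Other members are named to account for the rest, except some whose own results are not reported here, although counts and medians include them. Alternatives were the 0.1 threshold, a fold of 1 on the log2 scale or 10 points, 1 region per gene, pore-forming genes alone and the alpha2delta genes added.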

Additional observations from a re-analysis of the deposited data

Results flagged for a closer look

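These regions were picked out because the authors' own interaction contrast listed them, meaning that in their test the radiation effect differed between chow and the high fat diet. Values are methylation differences in percentage points, as coded in the authors' deposited tables. The sides are not named, so which diet had the larger effect is not known here.

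In satellite cells the differences were −66.9 points at Cacna1h and 1.2 at Kcnj3. In the stromal vascular fraction they were 53.3 points at Kcne4, 42.1 in a distal intergenic region assigned to Kcnv1 at −496936 bp, −24.9 at Kcnn2, −21 at Kcns3, −9.11 in intron 37 of Cacna1a and −2.19 at the Cacna1a start. The Kcne4 and Kcnv1 intervals, like that at the Cacna1a start, are single bases, and their coverage is unknown.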

How the results depend on the processing

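No paired analysis was possible because the tables hold no values of single samples, and for the same reason no replicate could be left out. Counting pore-forming genes alone moved the RNA count over both diets from 10 to 6 (5 higher, 1 lower), MBD exon regions from 19 to 10 and shores from 1 to 0. In RRBS it moved stromal radiation from 15 to 7, stromal diet from 28 to 18, satellite radiation from 31 to 18 and satellite diet from 26 to 16. A threshold of 0.1 moved the chow count from 1 to 6 and, chosen after the values were seen, the count of other excitability genes over both diets from 3 to 6. A fold of 1 on the log2 scale left 0 of 2 promoter, 0 of 1 shore and 0 of 19 exon regions. Requiring 10 points left 5, 17 and 4 regions in the stromal radiation, diet and interaction tables, and 18 and 9 in satellite radiation and diet. Taking 1 region per gene left 1 promoter, 18 stromal diet, 19 satellite radiation and 17 satellite diet regions. In all, 21 alternatives moved a count by more than 1.5 times and 22 did not. These changes follow from counting fewer or more features. Adding the alpha2delta genes changed no RNA count. Depth and coverage are unknown, so no counting error can be given, and the unnamed sides of the MBD and RRBS contrasts limit those results to directions as coded.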

Other observations

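The sizes of the RRBS differences bunched, an observation made after the values were seen. Over the radiation and diet tables of satellite cells, 27 member regions reached 10 points, and in 12 of them, 44.4%, the size lay between 30 and 36 points. Over all regions past 10 points in these tables the share was 65%, 6312 of 9707. In the stromal vascular fraction 22 member regions reached 10 points and 6, or 27.3%, lay between 16 and 22 points, against 39.2% of 6516. The bunching was therefore also present over all listed regions, and at a larger share than in the channel genes. Its cause was not tested.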
